A study of Mus musculus with 28 samples.

Results

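The genes described here encode the aminoacyl-tRNA synthetases, the enzymes that join each amino acid to its transfer RNA. They were taken by name as 34 of the 55414 genes in the count table, 19 for enzymes of the cytosol (symbols ending in 1, with Farsa and Farsb) and 15 for enzymes of the mitochondrion (symbols ending in 2). Other members of the family are not analysed here. RNA sequencing had been performed on 4 mm ear biopsies from 28 female C57BL/6J mice aged 6 to 8 weeks, with 1 library per mouse and no genetic change named for any group. RGRN-305, an inhibitor of the chaperone HSP90, was given at 1 mg per ear in acetone, or acetone alone, 100 min before 2.5 µg per ear of TPA in acetone, or acetone alone, and the ear was sampled 4 hours after that challenge. TPA, a phorbol ester, switches on protein kinase C and is a standard irritant for mouse skin. The groups were thus vehicle (acetone at both steps, n = 4), RGRN-305 (inhibitor, then acetone, n = 4), TPA (acetone, then TPA, n = 10) and TPA+RGRN-305 (inhibitor, then TPA, n = 10), so that every ear had received acetone.

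A cell needs 2 sets of synthetases. The cytosolic set charges tRNAs for the ribosomes that read nuclear messages, while the mitochondrial set is also encoded in the nucleus, made in the cytosol and then imported to charge the tRNAs of the mitochondrial genome. Gars1 and Kars1 serve both places from 1 gene, and mammals form mitochondrial glutaminyl-tRNA without an enzyme of its own, which is why glycine, lysine and glutamine have no member ending in 2. By fold, the enzymes are grouped as class I and class II, and part of the cytosolic set is held together in the multisynthetase complex. Many cytosolic synthetase genes are known targets of ATF4, the transcription factor of the amino acid response.

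The members were well covered. Library totals ran from 16751780 to 24716640 counts, and the count of a single member in a single mouse ran from 30 (Pars2) to 5139 (Qars1). All 34 members passed the filter on low counts, along with 18991 genes in all. Values are given as CPM, the counts of a library divided by its total after TMM scaling and put on the usual per-library base, and a gene is said to be called where the Benjamini-Hochberg adjusted p of the quasi-likelihood test of edgeR was under 0.05. Levels were also divided by the gene length written by the counting step, which may differ from the length of the expressed transcript. Per kilobase of that length, the vehicle level of the cytosolic members ran from 6.64 to 39.2 CPM per kb (median 11.0). That of the mitochondrial members ran from 1.01 to 11.9 (median 2.80). The order of genes depends on this length, which was 18102 bases for Eprs1 and 2447 for Hars1. Without the division Eprs1 stood at 121 CPM and Hars1 at 95.9 CPM in vehicle mice. The highest cytosolic levels per kb in vehicle mice were those of Hars1 (39.2 ± 1.58 CPM per kb, SD, n = 4) and Gars1 (38.4 ± 1.01), which differed by less than their SDs, and then Qars1 (32.1 ± 2.45). The lowest were those of Eprs1 (6.68 ± 0.350) and Yars1 (6.64 ± 0.840), again with overlapping spread. Among the mitochondrial members Iars2 (11.9 ± 0.436) and Hars2 (9.54 ± 0.194) stood highest and Wars2 (1.01 ± 0.0376) lowest.

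**Figure D1:**
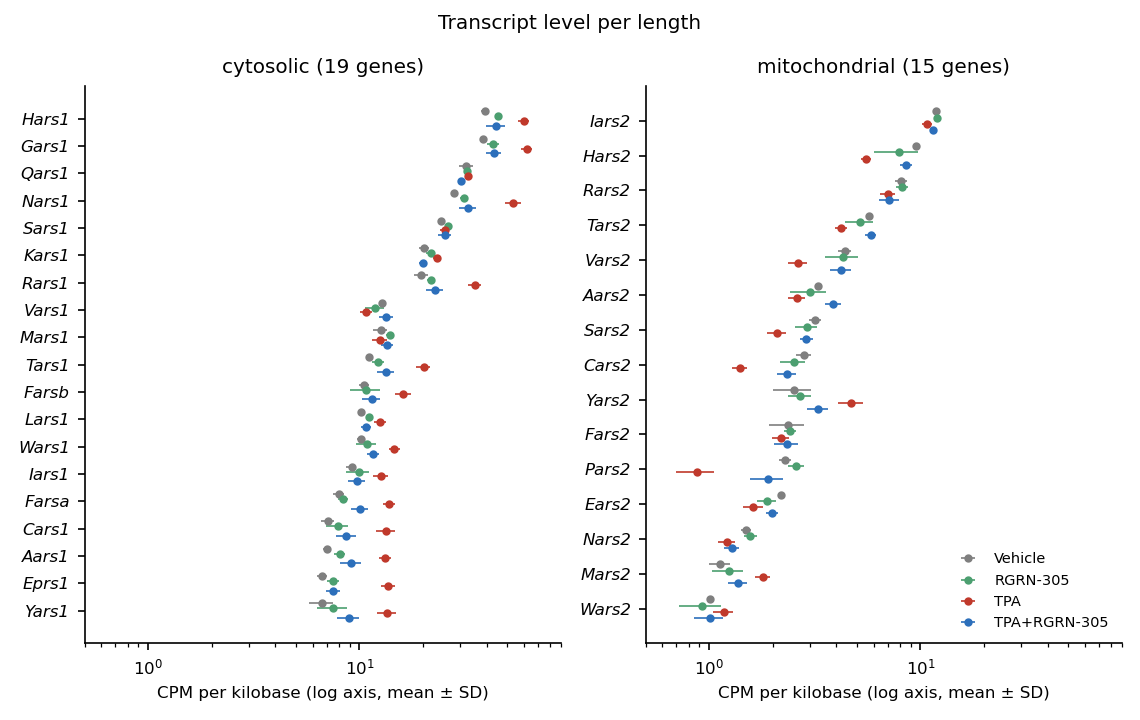
CPM per kilobase of gene length on a log axis for each of the 34 members, with points for the group mean and bars for the SD (vehicle and RGRN-305, n = 4; TPA and TPA+RGRN-305, n = 10). In vehicle mice the mitochondrial members ran from 1.01 to 11.9 and the cytosolic members from 6.64 to 39.2 CPM per kb, and the TPA points are the ones set apart for most members.

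To see which synthetases followed the inflammatory stimulus, TPA mice were first compared with vehicle mice. Most cytosolic members rose and most mitochondrial members fell. Of the 19 cytosolic members 15 were called higher, 1 lower (Vars1) and 3 were not called. Of the 15 mitochondrial members 2 were called higher (Mars2 and Yars2), 11 lower and 2 were not called, so that 29 of the 34 members were called in all (66.0% of all genes). Split by direction, 31.6% of all genes tested were called higher and 34.4% lower. The median log2 fold change was 0.62 for the cytosolic members and -0.33 for the mitochondrial ones, beside -0.03 for all genes. Changes were modest: 4 members met the study's definition of a DEG (adjusted p under 0.05, absolute log2 fold change above 1 and mean normalized count above 50), of which Eprs1 and Yars1 were higher and Pars2 and Cars2 lower, while 7.61% of all genes were higher DEGs and 5.34% lower DEGs. When only the library totals were used for scaling, the median of all genes shifted by -0.286, and 13 cytosolic members were called higher and 4 lower, and 2 mitochondrial members higher and 12 lower.

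**Figure D2:**
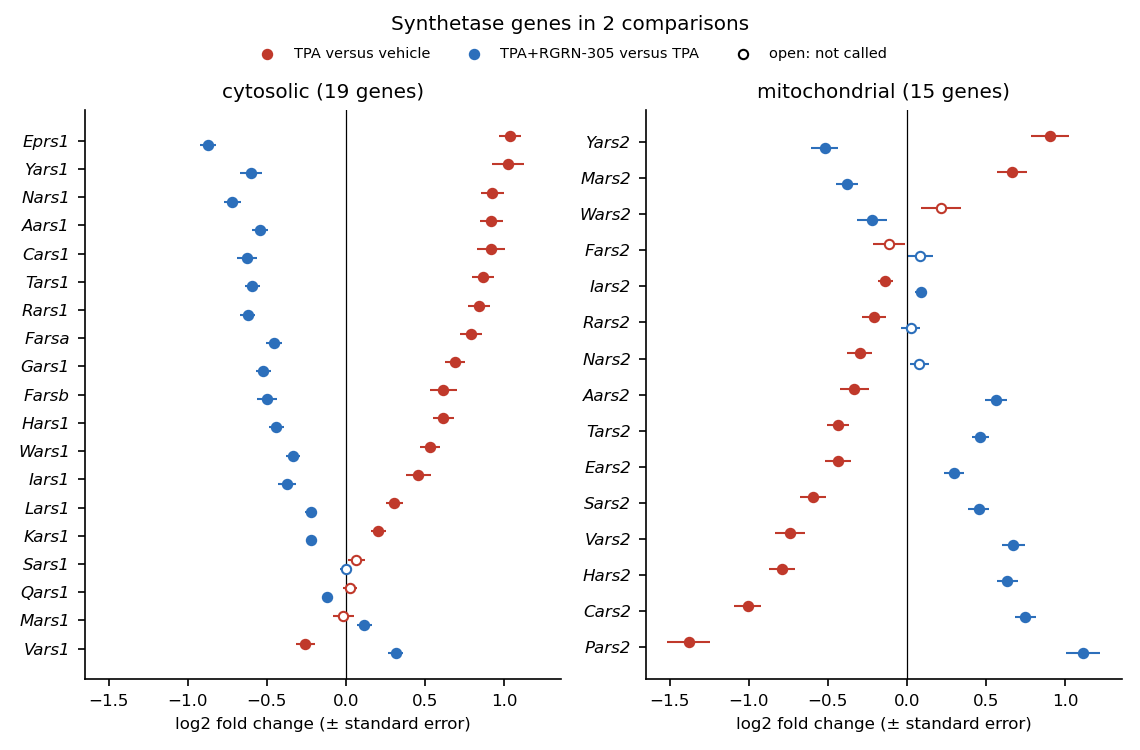
Log2 fold change of the 19 cytosolic members (left) and the 15 mitochondrial members (right) in TPA versus vehicle (red) and TPA+RGRN-305 versus TPA (blue), with standard errors as bars and open points for members that were not called. With TPA the cytosolic points run from -0.26 to 1.04 and the mitochondrial points from -1.38 to 0.90; both comparisons use the same 10 TPA mice.

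The cytosolic member with the largest rise was Eprs1, which joins both glutamate and proline to their tRNAs and sits in the multisynthetase complex (ENSMUSG00000026615, chr1:185095101-185161840 of GRCm39, plus strand). Eprs1 was read at 128, 125, 116 and 115 CPM in the 4 vehicle mice, at 146, 140.3, 125 and 132 with RGRN-305 alone, at 218 to 277 (median 243) in the 10 TPA mice and at 119.7 to 154 (median 135) in the 10 TPA+RGRN-305 mice. Every TPA mouse lay above every vehicle mouse, and the log2 fold change was 1.04 (standard error 0.07, edgeR adjusted p = 1.1e-14). Yars1 encodes the tyrosine enzyme (ENSMUSG00000028811, chr4:129082752-129114906 of GRCm39, plus strand). In vehicle mice Yars1 stood at 36.2, 45.2, 34.4 and 41.8 CPM and with RGRN-305 alone at 39.8, 53.7, 37.9 and 46.6 CPM, against 69.1 to 95.2 (median 78.0) with TPA and 46.6 to 68.8 (median 52.9) with TPA+RGRN-305. Its vehicle values were spread more than those of most members, but the TPA values still lay above them without overlap, and the log2 fold change was 1.02 (standard error 0.10, edgeR adjusted p = 1.3e-10). Nars1 was read at 119.5, 123, 128 and 121 CPM in the 4 vehicle mice, at 137, 134, 129 and 143 with RGRN-305 alone, at 202 to 262 (median 234) in the 10 TPA mice and at 127 to 170.0 (median 138) in the 10 TPA+RGRN-305 mice. The asparagine gene Nars1 thus also rose in every TPA mouse, with a log2 fold change of 0.93 (standard error 0.07, edgeR adjusted p = 6.3e-13). Aars1 and Cars1, for alanine and cysteine, followed closely. The Aars1 values were 62.8, 69.8, 64.3 and 64.1 CPM with vehicle, 75.6, 80.7, 71.3 and 72.2 with RGRN-305 alone, 112 to 139 (median 122) with TPA and 75.5 to 107 (median 82.9) with TPA+RGRN-305. In vehicle mice Cars1 stood at 45.5, 51.6, 45.5 and 44.2 CPM and with RGRN-305 alone at 45.6, 59.7, 48.9 and 53.3 CPM, against 76.2 to 106 (median 86.8) with TPA and 44.5 to 68.6 (median 57.2) with TPA+RGRN-305. Neither gene overlapped between vehicle and TPA, and the log2 fold changes were 0.92 (standard error 0.07, edgeR adjusted p = 9.0e-13) for Aars1 and 0.91 (standard error 0.09, edgeR adjusted p = 1.1e-10) for Cars1. The arginine gene Rars1 was read at 59.7, 59.8, 64.3 and 69.3 CPM with vehicle and at 97.8 to 124 (median 115) with TPA, a log2 fold change of 0.84.

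Of the other called cytosolic members, Tars1 (threonine, 0.86 on the log2 scale), Farsa and Farsb (the 2 subunits of the phenylalanine enzyme, 0.79 and 0.62), Gars1 (glycine, 0.69) and Hars1 (histidine, 0.61) rose by more than the 4 members with the smallest rises. Wars1 was read at 34.2, 36.7, 34.1 and 34.6 CPM in the 4 vehicle mice, at 41.9, 39.6, 35.1 and 32.6 with RGRN-305 alone, at 47.5 to 56.6 (median 49.7) in the 10 TPA mice and at 35.7 to 44.3 (median 40.2) in the 10 TPA+RGRN-305 mice. In vehicle mice Iars1 stood at 51.7, 48.5, 48.0 and 45.3 CPM and with RGRN-305 alone at 48.6, 60.7, 46.1 and 53.7 CPM, against 58.8 to 74.9 (median 67.2) with TPA and 45.8 to 61.1 (median 51.4) with TPA+RGRN-305. For Wars1, the tryptophan enzyme known to be induced by interferon gamma, and Iars1, the isoleucine enzyme, vehicle and TPA values did not overlap. The Lars1 values were 55.4, 55.8, 52.8 and 54.4 CPM with vehicle, 59.4, 59.7, 58.0 and 60.9 with RGRN-305 alone, 60.4 to 73.7 (median 67.3) with TPA and 54.0 to 63.6 (median 57.7) with TPA+RGRN-305. Kars1 was read at 87.5, 84.6, 92.4 and 96.1 CPM in the 4 vehicle mice, at 96.0, 103, 97.3 and 91.4 with RGRN-305 alone, at 97.3 to 111 (median 103) in the 10 TPA mice and at 84.7 to 96.3 (median 89.1) in the 10 TPA+RGRN-305 mice. The leucine gene Lars1 rose by 0.30 and the lysine gene Kars1 by 0.20 on the log2 scale, also without overlap between vehicle and TPA. With library totals alone, however, Lars1 was no longer called and Kars1 turned to -0.083. Vars1, for valine, was the only cytosolic member called lower. In vehicle mice Vars1 stood at 74.1, 73.8, 71.6 and 68.8 CPM and with RGRN-305 alone at 59.0, 75.1, 64.2 and 67.2 CPM, against 55.1 to 65.5 (median 60.1) with TPA and 66.2 to 85.7 (median 74.5) with TPA+RGRN-305. Its TPA values lay below all 4 vehicle values, with a log2 fold change of -0.26 (standard error 0.06, edgeR adjusted p = 6.1e-04). The log2 fold changes of the 3 members not called were 0.07 for Sars1 (serine), 0.03 for Qars1 (glutamine) and -0.02 for Mars1 (methionine), with standard errors of 0.05, 0.04 and 0.06. Mars1 shares its locus with Ddit3 on the other strand, and whether strand was used in counting is not given in the sources used here, so that reads of the pair may not be fully separated. In all, 15 cytosolic members lay above vehicle and 1 below without overlap between the groups, beside 23.8% and 23.7% of all genes. By position in the cell, 5 of the 7 members of the multisynthetase complex were called higher (median 0.30), and 10 of the 12 outside it were called higher and 1 lower (median 0.74). By fold, the 9 members of class II had 8 called higher and the 9 of class I had 6 higher and 1 lower, with Eprs1 holding both folds.

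Because the cytosolic members moved together, their promoter windows were read for the letters of a few regulatory elements. RefSeq windows (GRCm38.p6, 250 bases before to 50 bases after the gene start) matched 25 of the 34 members, 12 cytosolic and 13 mitochondrial. Cars1, Hars1, Lars1, Nars1, Rars1, Vars1, Wars1, Hars2 and Pars2 had no window and were not searched. Among them are the only cytosolic member called lower with TPA (Vars1) and the mitochondrial member with the largest fall (Pars2). Searched on both strands, TGATGNAA, the core of the composite element that ATF4 binds with a C/EBP partner, was found in 5 of the 12 cytosolic windows (Aars1 at 2 places, Gars1, Iars1, Tars1 and Yars1) and in 0 of the 13 mitochondrial ones, beside 4.51% of 27025 genes with a window. The E-box CACGTG, a site of MYC and its relatives, was in 4 cytosolic genes (Aars1, Farsb, Iars1 and Tars1) and 1 mitochondrial gene (Ears2), beside 8.09% of genes. TGANTCA, the AP-1 letters, was in Qars1 alone (8.97% of genes), and both the CRE TGACGTCA (2.03%) and the heat shock letters GAANNTTC (9.04%) were in 0 member windows. None of these letter strings overlapped another in the windows printed here. All 5 genes with TGATGNAA were called higher with TPA, with log2 fold changes of 0.46 to 1.02, and so were 4 of the other 7 cytosolic genes with a window (Eprs1, Farsa, Farsb and Kars1). The 5 windows are printed with that of Sars1, which has neither string and was not called; capitals mark TGATGNAA, or its reverse complement, and CACGTG. They lie, in the order printed, at chr8:111033592-111033891 (+), chr6:55037751-55038050 (+), chr13:49681880-49682179 (+), chr15:11399609-11399908 (-), chr4:129189653-129189952 (+) and chr3:108445210-108445509 (-).
Aars1: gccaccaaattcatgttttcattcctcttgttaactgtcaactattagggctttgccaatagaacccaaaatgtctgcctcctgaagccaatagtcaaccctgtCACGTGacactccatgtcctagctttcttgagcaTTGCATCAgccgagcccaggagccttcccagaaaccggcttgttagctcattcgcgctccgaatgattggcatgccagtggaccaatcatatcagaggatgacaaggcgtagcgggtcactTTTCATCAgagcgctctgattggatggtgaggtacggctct
Gars1: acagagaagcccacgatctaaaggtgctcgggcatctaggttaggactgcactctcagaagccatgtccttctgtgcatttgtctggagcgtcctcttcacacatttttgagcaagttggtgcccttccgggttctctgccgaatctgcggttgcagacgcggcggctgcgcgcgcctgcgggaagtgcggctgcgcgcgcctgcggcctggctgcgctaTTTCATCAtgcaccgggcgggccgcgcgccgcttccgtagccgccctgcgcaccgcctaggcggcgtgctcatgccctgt
Iars1: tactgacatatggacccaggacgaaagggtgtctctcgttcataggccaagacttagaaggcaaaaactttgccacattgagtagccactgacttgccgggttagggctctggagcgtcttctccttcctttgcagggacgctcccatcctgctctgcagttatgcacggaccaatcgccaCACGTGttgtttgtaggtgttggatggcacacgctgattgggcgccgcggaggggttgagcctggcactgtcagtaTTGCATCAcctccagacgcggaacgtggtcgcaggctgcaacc
Tars1: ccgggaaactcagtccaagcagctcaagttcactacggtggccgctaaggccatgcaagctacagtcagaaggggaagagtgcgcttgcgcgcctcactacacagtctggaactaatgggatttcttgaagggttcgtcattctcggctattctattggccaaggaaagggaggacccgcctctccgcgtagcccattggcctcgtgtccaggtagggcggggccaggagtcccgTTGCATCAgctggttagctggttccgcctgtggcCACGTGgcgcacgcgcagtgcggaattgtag
Yars1: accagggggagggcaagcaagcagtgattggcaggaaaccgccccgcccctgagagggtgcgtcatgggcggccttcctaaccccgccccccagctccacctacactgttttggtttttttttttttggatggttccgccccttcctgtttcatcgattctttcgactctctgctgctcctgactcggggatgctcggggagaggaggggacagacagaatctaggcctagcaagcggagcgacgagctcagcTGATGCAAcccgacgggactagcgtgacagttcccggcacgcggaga
Sars1: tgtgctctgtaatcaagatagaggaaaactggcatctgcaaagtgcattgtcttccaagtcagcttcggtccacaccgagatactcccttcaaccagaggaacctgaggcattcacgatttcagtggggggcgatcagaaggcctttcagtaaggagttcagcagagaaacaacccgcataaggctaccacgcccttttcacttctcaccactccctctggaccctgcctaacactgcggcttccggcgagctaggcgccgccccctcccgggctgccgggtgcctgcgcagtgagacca
A match of letters is a description of the sequence, and binding was not measured.

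In the mitochondrial set the largest fall was that of Pars2, which charges mitochondrial proline tRNA (ENSMUSG00000043572, chr4:106508266-106512483 of GRCm39, plus strand). Pars2 was read at 7.54, 7.14, 6.45 and 7.24 CPM in the 4 vehicle mice, at 7.77, 8.78, 8.20 and 7.19 with RGRN-305 alone, at 2.02 to 3.81 (median 2.56) in the 10 TPA mice and at 4.01 to 7.43 (median 6.02) in the 10 TPA+RGRN-305 mice. All 10 TPA mice lay below all 4 vehicle mice, and the log2 fold change was -1.38 (standard error 0.14, edgeR adjusted p = 1.5e-10). Cars2, the mitochondrial cysteine enzyme, lay at chr8:11558417-11600875 of GRCm39, minus strand. In vehicle mice Cars2 stood at 19.7, 22.2, 18.3 and 21.0 CPM and with RGRN-305 alone at 14.6, 20.3, 18.3 and 19.4 CPM, against 8.74 to 11.1 (median 10.3) with TPA and 13.4 to 19.5 (median 17.01) with TPA+RGRN-305. The TPA group was again set apart from vehicle, with a log2 fold change of -1.01 (standard error 0.08, edgeR adjusted p = 3.6e-12). Hars2, the mitochondrial histidine enzyme, starts head to head with the cytosolic Hars1, its neighbour on the other strand (chr18:36899580-36916258 for Hars1 and chr18:36916061-36925615 for Hars2, so that their first bases overlap). The Hars2 values were 41.4, 40.2, 41.7 and 40.1 CPM with vehicle, 22.4, 37.0, 40.9 and 34.9 with RGRN-305 alone, 21.8 to 25.1 (median 24.2) with TPA and 33.0 to 39.3 (median 37.3) with TPA+RGRN-305. The neighbours moved in opposite directions with TPA, Hars2 by -0.79 (standard error 0.08, edgeR adjusted p = 8.2e-10) and Hars1 by 0.61 (standard error 0.07, edgeR adjusted p = 1.2e-09). Neither gene overlapped between vehicle and TPA. Vars2 was read at 22.4, 26.4, 23.0 and 24.2 CPM in the 4 vehicle mice, at 17.5, 27.1, 25.2 and 24.1 with RGRN-305 alone, at 11.6 to 16.2 (median 14.5) in the 10 TPA mice and at 18.6 to 26.4 (median 22.9) in the 10 TPA+RGRN-305 mice. In vehicle mice Sars2 stood at 10.0, 11.5, 10.6 and 10.0 CPM and with RGRN-305 alone at 7.87, 10.4, 9.72 and 10.4 CPM, against 6.17 to 8.45 (median 6.71) with TPA and 8.55 to 10.5 (median 9.38) with TPA+RGRN-305. The mitochondrial valine gene Vars2 fell by 0.74 and the serine gene Sars2 by 0.59 on the log2 scale, without overlap between vehicle and TPA.

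Smaller falls were found for Ears2 (glutamate, -0.44), Tars2 (threonine, -0.44) and Aars2 (alanine, -0.33), each without overlap between vehicle and TPA. Nars2, Rars2 and Iars2, for asparagine, arginine and isoleucine, were the least lowered of the called members. The Nars2 values were 10.3, 11.2, 9.91 and 10.3 CPM with vehicle, 11.6, 11.4, 10.8 and 9.92 with RGRN-305 alone, 7.31 to 9.83 (median 8.36) with TPA and 7.97 to 10.2 (median 9.03) with TPA+RGRN-305. Rars2 was read at 22.7, 21.3, 21.6 and 24.5 CPM in the 4 vehicle mice, at 24.4, 22.7, 20.9 and 22.9 with RGRN-305 alone, at 17.5 to 21.6 (median 19.7) in the 10 TPA mice and at 17.1 to 24.6 (median 19.1) in the 10 TPA+RGRN-305 mice. In vehicle mice Iars2 stood at 109.7, 100.4, 106 and 106 CPM and with RGRN-305 alone at 102, 109, 111 and 105 CPM, against 86.4 to 104 (median 96.8) with TPA and 95.9 to 105 (median 102) with TPA+RGRN-305. The log2 fold changes were -0.30, -0.21 and -0.14, the TPA and vehicle values of Rars2 and Iars2 overlapped, and Rars2 was not called without vehicle mouse 4 (edgeR adjusted p = 0.083). Against this direction, Yars2 and Mars2, for tyrosine and methionine, were higher in every TPA mouse. Yars2 was read at 8.99, 6.49, 9.58 and 6.56 CPM in the 4 vehicle mice, at 9.64, 8.83, 8.24 and 7.14 with RGRN-305 alone, at 12.4 to 20.0 (median 14.7) in the 10 TPA mice and at 8.44 to 12.3 (median 10.1) in the 10 TPA+RGRN-305 mice. In vehicle mice Mars2 stood at 14.8, 12.5, 11.3 and 12.4 CPM and with RGRN-305 alone at 11.9, 15.9, 12.1 and 16.2 CPM, against 17.5 to 22.2 (median 20.6) with TPA and 13.1 to 17.8 (median 15.8) with TPA+RGRN-305. The log2 fold change was 0.90 (standard error 0.12, edgeR adjusted p = 4.8e-08) for Yars2 and 0.66 (standard error 0.10, edgeR adjusted p = 2.9e-07) for Mars2. Wars2 (tryptophan, 0.22, standard error 0.13) and Fars2 (phenylalanine, -0.12, standard error 0.10) were not called. In all, 9 mitochondrial members lay below vehicle and 2 above without overlap, beside 23.7% and 23.8% of all genes. Of the 7 mitochondrial members of class II, 6 were called lower and 1 not, and of the 8 of class I, 5 were lower, 2 higher and 1 not. Mars2, Yars2, Cars2, Sars2, Fars2, Iars2, Rars2, Ears2, Hars2 and, in the cytosolic set, Aars1, Farsb, Kars1, Mars1, Hars1, Vars1, Wars1 and Yars1 share some bases with another protein-coding gene in the annotation, so that their counts could hold or lose reads of a neighbour.

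**Figure D3:**
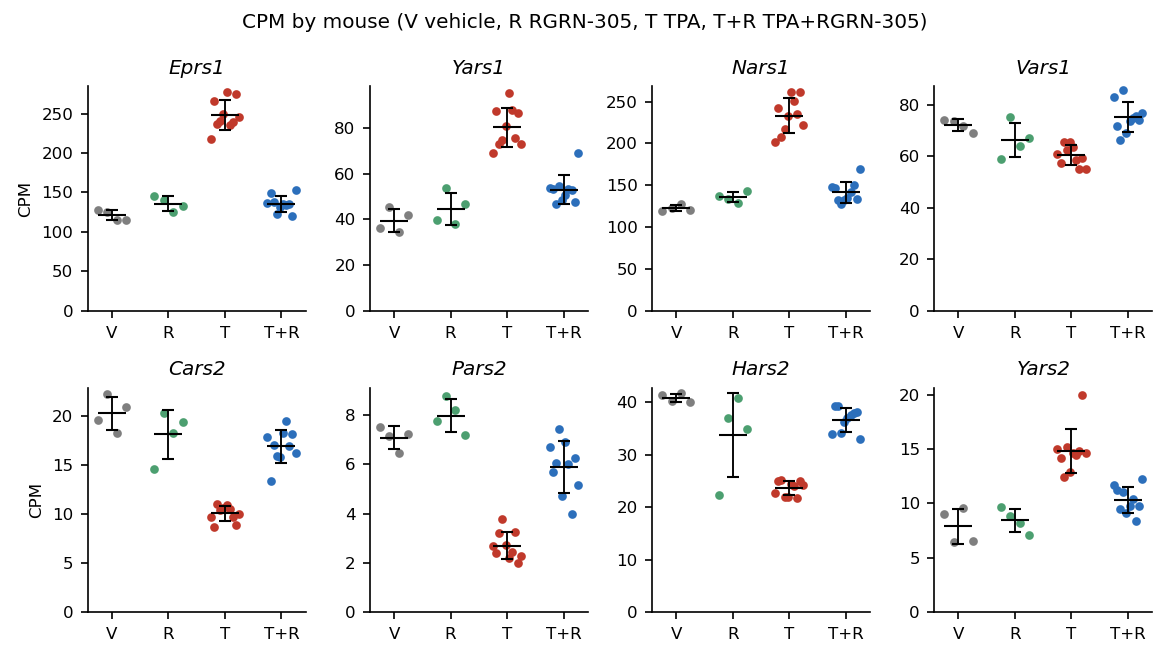
CPM of 8 members in each mouse (points), with the group mean and SD in black, on axes that start at 0. In Eprs1, Yars1, Nars1 and Yars2 the TPA mice lie above the vehicle mice and in Vars1, Cars2, Pars2 and Hars2 below, while the TPA+RGRN-305 mice lie nearer to vehicle; 1 RGRN-305 mouse is low in Hars2 (22.4 CPM).

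To set the 2 sets of enzymes against each other within a mouse, where scaling largely cancels, the median of log2(CPM + 0.5) over the mitochondrial members was taken from that over the cytosolic members. As these levels are not divided by gene length, it is the change between groups that is read. The difference was 2.05, 2.36, 1.93 and 2.16 in the 4 vehicle mice, 2.59, 2.24, 2.15 and 2.05 with RGRN-305 alone, 2.74 to 3.15 (median 2.98) with TPA and 2.14 to 2.43 (median 2.23) with TPA+RGRN-305. Every TPA mouse lay above every other mouse, and the other 3 groups overlapped. In sums, the cytosolic members held 1482 ± 15.2 CPM (SD, n = 4) in vehicle and 2187 ± 112 CPM (SD, n = 10) in TPA mice, and the mitochondrial members 348 ± 3.02 and 286 ± 6.46 CPM. The ratio of the sums was 4.26 ± 0.0692 with vehicle, 4.82 ± 0.479 with RGRN-305 alone, 7.65 ± 0.445 with TPA and 4.85 ± 0.327 with TPA+RGRN-305. As the members were chosen with earlier results of these data known, these scores are given without a p.

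**Figure D4:**
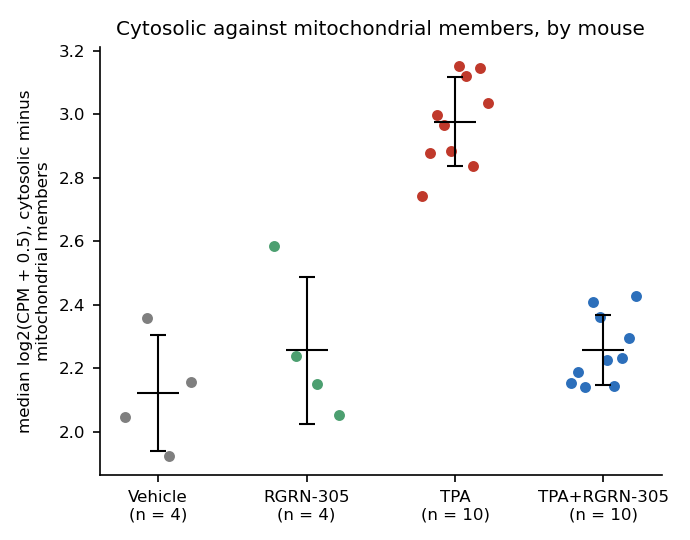
Median log2(CPM + 0.5) of the 19 cytosolic members minus that of the 15 mitochondrial members in each mouse (points), with the group mean and SD in black. The 10 TPA mice lie at 2.74 to 3.15, above all mice of the other 3 groups, which lie at 1.93 to 2.59.

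Against vehicle, the shift went the same way for most single amino acids. For 16 pairs of a cytosolic gene and its mitochondrial counterpart, with Eprs1 paired to both Ears2 and Pars2 and both phenylalanine subunits to Fars2, the log2 ratio of CPM per kb was above vehicle in all TPA mice, without overlap, in 14 pairs. It was below in 1 (Mars1/Mars2) and overlapped in 1 (Yars1/Yars2). The mean log2 ratio of Eprs1 to Pars2 was 1.54 ± 0.0743 (SD, n = 4) with vehicle and 3.99 ± 0.361 (SD, n = 10) with TPA, the widest shift of the 16. Cars1/Cars2 went from 1.34 ± 0.0972 to 3.26 ± 0.202 and Hars1/Hars2 from 2.04 ± 0.0477 to 3.44 ± 0.121. In Sars1/Sars2 (2.93 to 3.59) the log2 fold changes with TPA were 0.07 for Sars1, which was not called, and -0.59 for Sars2. In Wars1/Wars2 (3.32 to 3.65) they were 0.53 for Wars1 and 0.22 for Wars2, which was not called. With RGRN-305 alone, the ratio of Wars1/Wars2 reached 4.25, above the highest TPA mouse (3.87). That of Sars1/Sars2 reached 3.49, above the lowest TPA mouse (3.41). In the other pairs of the 14, every RGRN-305 mouse lay below every TPA mouse. The methionine pair went the other way, from 3.48 ± 0.163 to 2.80 ± 0.148, with Mars1 not called and Mars2 higher. For tyrosine both genes rose, and the ratio was 1.42 ± 0.475 with vehicle and 1.52 ± 0.207 with TPA. For valine both fell, Vars2 more than Vars1, and the ratio was 0.49 higher with TPA. In TPA+RGRN-305 mice the ratio was below that of every TPA mouse in 9 pairs and overlapped in 7.

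**Figure D5:**
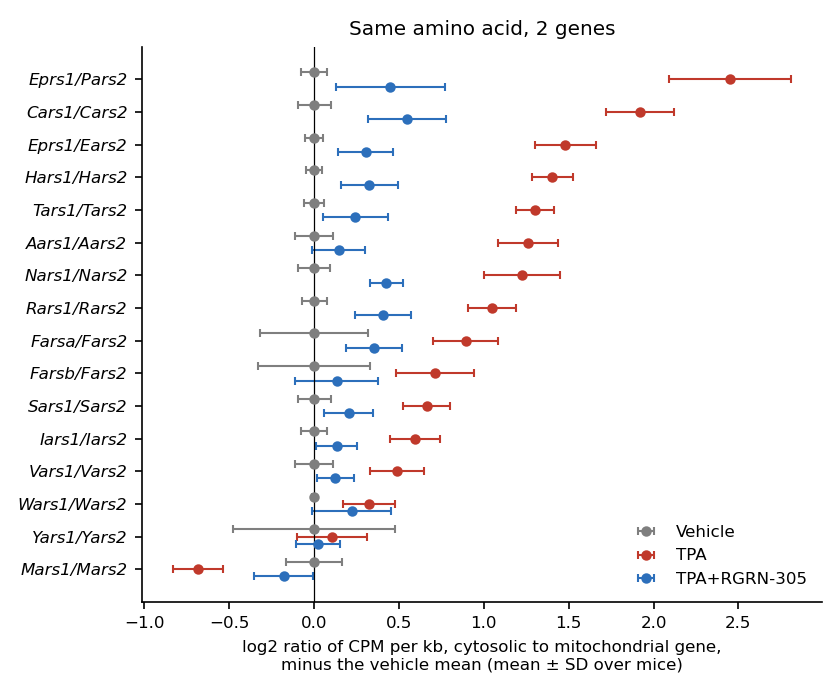
Log2 ratio of the CPM per kb of a cytosolic gene to that of its mitochondrial counterpart for 16 pairs, as the mean ± SD over mice with the vehicle mean of the pair set to 0 (vehicle n = 4, TPA and TPA+RGRN-305 n = 10). With TPA 14 pairs lie above vehicle without overlap of the mice, from Wars1/Wars2 to Eprs1/Pars2 (a shift of 2.45), the tyrosine pair overlaps and the methionine pair lies below (-0.68).

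The effect of pretreatment was examined in the 10 TPA+RGRN-305 mice against the same 10 TPA mice. Here cytosolic members were mostly lower and mitochondrial members mostly higher: of the 19 cytosolic members 16 were called lower, 2 higher (Vars1 and Mars1) and 1 not (Sars1), and of the 15 mitochondrial members 9 were called higher, 3 lower (Yars2, Mars2 and Wars2) and 3 not (Fars2, Nars2 and Rars2). In all 30 of 34 members were called, beside 65.6% of all genes, of which 33.0% were higher and 32.6% lower. The median log2 fold change was -0.46, 0.30 and 0.02 for the cytosolic members, the mitochondrial members and all genes. Since this comparison shares the TPA mice with the one before, opposite signs in the 2 are not independent of each other, and group means are given side by side instead. The largest cytosolic fall was that of Eprs1, at -0.87 (standard error 0.05, edgeR adjusted p = 2.3e-16), with group means (± SD) of 121 ± 6.34 CPM in the 4 vehicle mice, 248 ± 18.9 in the 10 TPA mice and 136 ± 10.2 in the 10 TPA+RGRN-305 mice. Nars1 (-0.72 (standard error 0.05, edgeR adjusted p = 1.1e-13)) went from 233 ± 20.9 to 142 ± 12.7 CPM, beside 123 ± 3.50 with vehicle. Cars1 (-0.63), Rars1 (-0.62) and Yars1 (-0.60) were next, and Yars1, at 52.9 ± 6.23 CPM, kept all 10 mice above the 4 vehicle mice. The Rars1 values were 75.4, 69.0, 69.7 and 68.5 CPM with RGRN-305 alone and 64.7 to 86.9 (median 74.2) with TPA+RGRN-305. Vars1 rose by 0.31 (standard error 0.05, edgeR adjusted p = 9.1e-07), to 75.0 ± 5.82 CPM beside 72.1 ± 2.44 with vehicle. Sars1 was at 122 to 139 (median 131) CPM with TPA and 119 to 152 (median 129.6) with TPA+RGRN-305, a difference of 0.00 on the log2 scale with a standard error of 0.04.

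The mitochondrial members with the largest rise in pretreated ears were Pars2 (1.11 (standard error 0.11, edgeR adjusted p = 1.6e-10)) and Cars2 (0.75 (standard error 0.07, edgeR adjusted p = 1.8e-11)), and Pars2 was the only member to meet the DEG definition in this comparison (2.69% of all genes were higher DEGs and 4.61% lower). Its mean went from 2.71 ± 0.560 to 5.89 ± 1.04 CPM, beside 7.09 ± 0.461 with vehicle. Vars2 (0.67), Hars2 (0.63), Aars2 (0.56), Tars2 (0.46) and Sars2 (0.45) were also higher without overlap with the TPA mice. In vehicle mice Aars2 stood at 15.6, 15.04, 16.6 and 15.4 CPM and with RGRN-305 alone at 10.2, 15.5, 15.1 and 16.1 CPM, against 10.6 to 14.1 (median 12.2) with TPA and 16.2 to 21.5 (median 17.8) with TPA+RGRN-305. By group mean Aars2 was lowest with TPA and highest with TPA+RGRN-305, but RGRN-305 mouse 1 lay below every TPA mouse and TPA+RGRN-305 versus vehicle was not called (edgeR adjusted p = 0.072). Ears2 (0.30) and Iars2 (0.09) rose with overlap, and Iars2 was not called without the low-Xist mouse described further on (edgeR adjusted p = 0.052). In Nars2, Rars2 and Fars2 the log2 fold changes were 0.08, 0.02 and 0.08, with standard errors of 0.06, 0.06 and 0.08. The members that had risen with TPA in this set, Yars2 (-0.52 (standard error 0.08, edgeR adjusted p = 2.3e-06)) and Mars2 (-0.38 (standard error 0.07, edgeR adjusted p = 1.4e-05)), were lower. Without overlap between the groups, 12 cytosolic members lay below TPA and 1 above, and 7 mitochondrial members above and 1 below, beside 15.5% of all genes below and 11.7% above. With library totals alone, which moved the median of all genes by 0.257, cytosolic members were called lower in 11 cases and higher in 4, and mitochondrial members higher in 12 and lower in 1. The sign of Kars1 (0.039), Lars1 (0.038), Qars1 (0.14) and Wars2 (0.035) was then the opposite.

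Whether pretreatment changed the response to TPA was tested with the interaction, which takes the TPA effect in ears without RGRN-305 from that in ears with it. It was called for 26 of the 34 members (50.8% of all genes), 15 cytosolic members lower and 1 higher (Vars1), and 8 mitochondrial members higher and 2 lower (Mars2 and Yars2), beside 25.8% of all genes higher and 25.0% lower. The largest were those of Eprs1 (-1.04 (standard error 0.09, edgeR adjusted p = 8.2e-11)), Pars2 (0.94 (standard error 0.19, edgeR adjusted p = 1.2e-04)), Cars2 (0.91 (standard error 0.12, edgeR adjusted p = 2.4e-07)), Hars2 (0.90 (standard error 0.12, edgeR adjusted p = 2.8e-07)) and Nars1 (-0.86 (standard error 0.10, edgeR adjusted p = 1.1e-08)). For Eprs1 the TPA effect was 1.04 in ears without RGRN-305 and -0.00 in ears with it, and for Pars2 it was -1.38 and -0.44. By the size and level limits of the DEG definition Eprs1 alone was left (3.97% of all genes higher and 5.49% lower). Mars1, Qars1, Sars1, Fars2, Iars2, Nars2, Rars2 and Wars2 were not called. With library totals alone 4 cytosolic members were called higher and 10 lower, and 12 mitochondrial members higher and 0 lower.

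RGRN-305 alone against vehicle gave 0 called members by edgeR and by DESeq2. Over all genes edgeR called 0.0%. The study, with its own DESeq2 fit, reported 4 differentially expressed genes here (Rpl27-ps1, Tnfrsf9, Fosl1 and Epgn), which are not members. The smallest adjusted p among members was 0.43, and the unadjusted p was under 0.05 for 6 of 34 members, beside 9.53% of all genes. The log2 fold changes ran from -0.12 to 0.21 (median 0.15) in the cytosolic set, where 18 of 19 were above 0, and from -0.27 to 0.17 (median -0.03) in the mitochondrial set. Aars1, Gars1, Hars1, Lars1, Nars1 and Sars1 lay above vehicle in all 4 mice without overlap, beside 2.37% of all genes that did so, and 0 members lay below (2.81% of all genes). Hars1 was read at 94.6, 97.5, 100.2 and 91.2 CPM with vehicle and 113, 113, 106 and 112 with RGRN-305 alone, a log2 difference of 0.21 (standard error 0.08, edgeR adjusted p = 0.43). For Sars1 the values were 122, 124, 127 and 126 against 137, 132, 135 and 134 CPM. These differences did not pass the test, which does not show that the groups were alike. RGRN-305 mouse 1 was the lowest of its group in 10 of the 15 mitochondrial members, with Hars2 at 22.4 CPM against 34.9 to 40.9 in the others, and without it the difference in the cytosolic minus mitochondrial median between RGRN-305 and vehicle went from 0.14 to 0.03.

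The TPA+RGRN-305 mice were also set against vehicle, where they had 9 cytosolic members called higher and 0 lower, and 2 mitochondrial members higher (Mars2 and Yars2) and 2 lower (Cars2 and Nars2), which makes 13 of 34 members beside 22.0% of all genes (11.7% higher and 10.3% lower). The largest were Yars1 (0.42 (standard error 0.10, edgeR adjusted p = 0.0019)), Yars2 (0.38), Aars1 (0.38 (standard error 0.07, edgeR adjusted p = 2.2e-04)) and Farsa (0.34), and 5 cytosolic members lay above vehicle without overlap (6.58% of all genes did), while 1 member, Hars2 (-0.15, not called), lay below (4.2%). These calls depended on single mice: without vehicle mouse 1 there were 4 cytosolic members called higher, and without vehicle mouse 4 there were 5; without vehicle mouse 2 or mouse 4 there were 0 mitochondrial members called in either direction. Against RGRN-305 alone, Farsa (0.26) and Aars2 (0.36) were called higher and Nars2 (-0.29) and Pars2 (-0.44) lower, which makes 4 of 34 members beside 14.0% of all genes (8.72% higher and 5.33% lower). Without overlap Aars2 lay above RGRN-305 alone and 0 members below (3.53% and 1.7% of all genes). Aars2 was not called without RGRN-305 mouse 1 (edgeR adjusted p = 0.071), and Pars2 was not called without mouse 2 or mouse 3 of that group (0.071 and 0.060 by edgeR). In both comparisons edgeR left 0 members under the DEG definition, with 1.23% and 0.0895% of all genes higher and lower against vehicle and 0.811% and 0.0474% against RGRN-305 alone. TPA+RGRN-305 mouse 10 was the highest of its group in 14 of the 19 cytosolic members. It also had the highest neutrophil (49.7 CPM), sebaceous gland (4831 CPM) and cartilage (492 CPM) marker sums of that group and the lowest T cell sum (36.5 CPM). TPA mouse 1, the lowest of its group in 12 of the 19 cytosolic members, had a neutrophil sum of 312 CPM (group median 265). Its keratinocyte sum (26545 CPM) was the lowest of the TPA group. Its fibroblast (9999 CPM), macrophage (718 CPM), endothelial (178 CPM) and T cell (41.0 CPM) sums were the highest of that group.

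Among the partners of the synthetases, the scaffold genes of the multisynthetase complex did not all move one way. Eef1e1, which encodes the scaffold protein AIMP3, was read at 10.4 ± 1.20 CPM (SD, n = 4) with vehicle, at 39.02 ± 3.57 (SD, n = 10) with TPA and at 17.3 ± 3.10 with TPA+RGRN-305 (log2 fold changes 1.90 and -1.17, both called). The scaffold gene Aimp2 (0.25) and the tRNA exporter Xpot (0.44) rose with TPA, and Aimp1 (-0.18) fell; in TPA+RGRN-305 versus TPA, Xpot (-0.30) fell and Aimp1 and Aimp2 were not called. Of the subunits of elongation factor 1, which carries charged tRNA to the ribosome, Eef1g (0.32) and Eef1d (0.31) rose with TPA, Eef1a1 (-0.16) fell and Eef1b2 (0.08) was not called. These values are to be read against the shift of 0.286 between scalings. Of 5 genes for editing and release of mischarged or stalled tRNA, Dtd2 (-0.55) and Ptrh2 (-0.24) were called lower with TPA and 3 were not called. Over all genes 31.6% were called higher and 34.4% lower with TPA, and 33.0% higher and 32.6% lower in TPA+RGRN-305 versus TPA. The counts of these short lists are to be read beside those shares, and 2 of 5 editing genes lower lies near the share called lower.

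The mitochondrial translation machinery was read beside its synthetases. Of 14 mitochondrial translation factors 9 were called lower and 3 higher with TPA (median -0.39), the largest changes being the lowered release factor genes Mtrfr (-1.35) and Mtrf1 (-0.96), the initiation factor Mtif3 (-0.74) and the elongation factor Gfm2 (-0.71), which acts in ribosome recycling. In TPA+RGRN-305 versus TPA 8 were called higher and 3 lower (median 0.24). Qrsl1, Gatb and Gatc encode the enzyme that makes mitochondrial glutaminyl-tRNA, and their log2 fold changes with TPA were 0.31, -0.51 and -0.21, all called. Of 10 genes that modify or trim mitochondrial tRNAs, 4 were called lower and 3 higher, led by Gtpbp3 (-1.21), Trmu (-1.12) and Trit1 (-0.74) among the lower and Elac2 (0.74) among the higher, and in TPA+RGRN-305 versus TPA 4 were called higher and 4 lower. The shares of all genes called, 31.6% higher and 34.4% lower with TPA and 33.0% higher and 32.6% lower in TPA+RGRN-305 versus TPA, are the background to these counts, and the counts of the tRNA modification list lie near them.

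Of the genes placed upstream of the synthetases, Atf4 itself was read at 123 ± 13.8 CPM (SD, n = 4) with vehicle, at 466 ± 47.2 (SD, n = 10) with TPA and at 213 ± 35.9 with TPA+RGRN-305 (log2 fold changes 1.93 and -1.13, both called). Of 32 genes of the ATF4 pathway and amino acid response tested, 19 were called higher and 10 lower with TPA (median 0.27), led by the stress transcription factor Atf3 (3.47), the amino acid transporters Slc7a11 (2.15) and Slc7a1 (2.07) and the transcription factor Cebpb (2.06). In TPA+RGRN-305 versus TPA 20 were called lower and 8 higher (median -0.31). Beside these stand, over all genes, 31.6% higher and 34.4% lower in the first comparison and 33.0% higher and 32.6% lower in the second. The list did not move as 1 block: Asns, the asparagine synthetase gene, rose by 0.78, while the serine synthesis genes Psat1 (-0.70) and Phgdh (-0.49) and the ATF4 target Trib3 (-0.52) fell. Like Atf4, Qrsl1, Gatb and Gatc, these genes were chosen after their values were seen. Among the eIF2 kinases, which raise ATF4 protein, Eif2ak3 (-0.68) fell and Eif2ak1 (-0.08), Eif2ak2 (-0.15) and Eif2ak4 (0.10) were not called. Of 8 genes of MYC and its partners 3 were called higher and 3 lower, led by Mycl (-2.76), Myc (2.67), Mxd1 (2.37) and Mxd4 (-1.32), which is near the share of all genes in each direction. Of 12 interferon gamma response genes tested, 6 were called higher and 3 lower, led by Cxcl10 (3.65), Irf1 (2.68), Gbp4 (-1.40) and Gbp5 (1.38).

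The ear samples are whole tissue, in which fewer cells of a type and less RNA per cell cannot be told apart. The summed CPM of 10 neutrophil markers was 6.29 to 13.1 with vehicle and 6.55 to 14.4 with RGRN-305 alone. It was 208 to 332 with TPA and 10.8 to 49.7 with TPA+RGRN-305. Ly6g was at 0 in both groups without TPA, and Elane with RGRN-305 alone. Of these markers 6 passed the filter on low counts, and Ly6g, Mpo, Elane and Camp did not. The sums for keratinocyte, fibroblast, skeletal muscle, sebaceous gland, adipocyte and macrophage markers overlapped between vehicle and TPA. The cartilage sum was 326 to 385 with vehicle and 399 to 549 with TPA. The endothelial sum was 123 to 164 and 153 to 178, and the T cell sum 38.5 to 43.0 and 28.5 to 41.0. The keratinocyte sum, 26545 to 34191 CPM over all mice, was high in every mouse. The part of these cells in the synthetase changes was not tested. The growing hair follicle sum was 7.96 to 10.7 CPM with vehicle and 12.5 to 104 CPM with TPA. It was above 2 times the median of all mice in 7 mice (2 of RGRN-305, 1 of TPA and 4 of TPA+RGRN-305). As only 1 of these is a TPA mouse, leaving out the 7 does not remove the difference between vehicle and TPA in this sum. In addition, 1 TPA+RGRN-305 mouse had almost no Xist (0.538 CPM) although all mice are labelled female. Without the 7 mice, TPA versus vehicle kept 15 cytosolic members higher and 11 mitochondrial members lower, TPA+RGRN-305 versus TPA had 16 cytosolic members lower and 8 mitochondrial members higher, and TPA+RGRN-305 versus vehicle had 5 cytosolic members higher. Without the low-Xist mouse the same 5 results were 15, 11, 16, 8 and 9.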

How the data were processed

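Per the methods of the study and its labels, paired-end reads of ear punch RNA from 28 mice (strand-specific kit) had been aligned to the GRCm39 assembly by the authors, who used Subread 2.10.3 to obtain gene counts from reads with a single, unambiguous place. The annotation release and the strand setting of the counting are not given in the sources used here. The deposited table holds these raw counts, with other columns for gene identifiers and, in bases, gene length as written by the counting step. All 28 columns bear sample titles and 0 columns stayed without a sample. Of 55414 identifiers 54749 matched GENCODE mouse release 39 for names and positions, and the 665 others held 0.0567% of the counts. Within groups no pair of libraries was alike within counting noise (lowest chi-square per degree of freedom 5.26).

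Counts were tested with the quasi-likelihood test of edgeR 4.0.16 (R 4.3.3, limma 3.58.1) on 18991 genes kept by filterByExpr (minimum count 10, minimum total 15), with TMM scaling, 1 term per group in 1 fit of all libraries, and Benjamini-Hochberg adjustment within each comparison. The fit was tested on simulated data with known changes. Tables and figures were made with Python 3.11.15, pandas 2.3.3, NumPy 2.4.6 and Matplotlib 3.10.9. The 34 members, the pathway lists and the cell markers were chosen with earlier results of these data known, and some genes of the family and its pathways are not reported here. Within the comparisons, values by mouse are given for the 5 called members of each set with the highest and the 5 with the lowest fold change with TPA, the 5 of each set with the largest change in TPA+RGRN-305 versus TPA and the 5 with the largest interaction, and up to 4 genes per pathway list are named in the same way (all in lists of at most 4). Each mouse is 1 library; the study describes 2 independent experiments, and which one a sequenced mouse came from is not given in the labels, so that this difference cannot be told apart from the spread within groups.

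As alternatives, DESeq2 1.42.0, RLE size factors, scaling to library totals without a further factor, no filter, a replicate block, only the groups compared, the DEG definition, single mice of the groups of 4 left out and, for the difference between the sets, the mean or Gars1 and Kars1 left out were tried. Leaving out 7 libraries with hair follicle transcripts and 1 with low Xist was added after seeing the data.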

Additional observations from a re-analysis of the deposited data

Results flagged for a closer look

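The interaction of TPA and RGRN-305, which tests whether the TPA effect differed between ears with and without the inhibitor, was called for 26 members by edgeR (adjusted p from 8.2e-11 for Eprs1 to 0.0020 for Yars2). In the cytosolic set the log2 interaction was -1.04 for Eprs1, -0.86 for Nars1, -0.78 for both Rars1 and Cars1, -0.77 for Yars1 and -0.74 for both Aars1 and Tars1. It was -0.68 for Gars1, -0.65 for Hars1, -0.53 for both Farsb and Farsa, -0.48 for Iars1, -0.43 for Wars1, -0.34 for Lars1 and -0.32 for Kars1, and 0.43 for Vars1. In the mitochondrial set it was 0.94 for Pars2, 0.91 for Cars2, 0.90 for Hars2, 0.70 for both Vars2 and Aars2, 0.60 for Tars2, 0.59 for Sars2 and 0.52 for Ears2, against -0.62 for Yars2 and -0.52 for Mars2.

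In 8 of the 140 groups and values tested, 1 mouse stood apart by Dixon's criterion, where chance marks about 1 in 20. TPA+RGRN-305 mouse 10 was the highest of its group in Sars1 (152 CPM, the others 119 to 135), Tars1 (97.4 CPM, the others 71.0 to 81.2) and Yars1 (68.8 CPM, the others 46.6 to 54.7). RGRN-305 mouse 1 was lowest in Aars2 (10.2 CPM, the others 15.1 to 16.1) and highest in Rars1 (75.4 CPM, the others 68.5 to 69.7). Hars1 was lowest in RGRN-305 mouse 3 (106 CPM, the others 112 to 113) and in TPA mouse 1 (124 CPM, the others 140.0 to 158). Yars2 was highest in TPA mouse 9 (19.96 CPM, the others 12.4 to 15.2).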

How the results depend on the processing

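The directions with TPA and with pretreatment on TPA were little moved by the tool or the filter. The smaller differences of TPA+RGRN-305 ears from vehicle depended on most settings, and those from RGRN-305 alone on fewer of them. The cause was not tested. With library totals alone, TPA versus vehicle called 4 cytosolic members lower, and the log2 fold change of Sars1 was -0.22, of Kars1 -0.083 and of Qars1 -0.26. TPA+RGRN-305 versus TPA then called 4 cytosolic members higher and 1 mitochondrial member lower, with Wars2 at 0.035, Sars1 at 0.26, Kars1 at 0.039, Qars1 at 0.14 and Lars1 at 0.038. The interaction called 4 cytosolic members higher and 0 mitochondrial members lower, with Sars1 at 0.17, Qars1 at 0.16 and Mars1 at 0.25, and TPA+RGRN-305 versus vehicle called 1 cytosolic member lower and 1 mitochondrial member higher. Under the DEG definition TPA versus vehicle had 2 cytosolic members higher and 0 lower, and 0 mitochondrial members higher and 2 lower. TPA+RGRN-305 versus TPA had 0 cytosolic members in either direction, and 1 mitochondrial member higher and 0 lower. The interaction had 1 cytosolic member lower, with 0 cytosolic members higher and 0 mitochondrial members in either direction, and TPA+RGRN-305 had 0 members in either set against vehicle and against RGRN-305 alone. In TPA+RGRN-305 versus vehicle, mitochondrial members called lower were 1 with RLE size factors, 1 with DESeq2, 1 with only the groups compared, 1 without the low-Xist library and 0 without a filter. Against RGRN-305 alone, DESeq2 called 2 cytosolic members higher and 1 lower, and without a filter 1 mitochondrial member was lower. Without the 7 hair follicle libraries, 1 cytosolic member was higher in TPA+RGRN-305 versus TPA, 5 cytosolic and 0 mitochondrial members were higher against vehicle, and 0 cytosolic members were higher against RGRN-305 alone. With the replicate number as a block, TPA+RGRN-305 versus vehicle called 6 cytosolic members higher, and 1 mitochondrial member higher and 1 lower, and TPA+RGRN-305 versus RGRN-305 called 1 mitochondrial member lower. Over all comparisons 8 calls were lost under the block and 0 gained, among them Iars2 and Wars2 in TPA+RGRN-305 versus TPA (edgeR adjusted p = 0.052 and 0.070). The numbers were not taken to pair the mice, since the median correlation of deviations was not higher between same-numbered mice. In 30 same-numbered pairs it was -0.18 to 0.25 (median -0.014), and above 0.1 in 4. Across 246 pairs with different numbers it was -0.30 to 0.39 (median 0.0002), and above 0.1 in 35. Single mice were left out of the groups of 4 only, so that of the mice in TPA+RGRN-305 versus TPA the low-Xist mouse alone was left out singly. Leaving out single vehicle or RGRN-305 mice gave 4 to 10 cytosolic members higher, 0 to 3 mitochondrial members higher and 0 to 3 lower in TPA+RGRN-305 versus vehicle. Against RGRN-305 alone the ranges were 1 to 3 cytosolic members higher, and 0 to 2 mitochondrial members higher and 1 to 2 lower. In TPA versus vehicle they were 15 cytosolic members higher and 1 lower, and 2 mitochondrial members higher and 10 to 11 lower, and in TPA+RGRN-305 versus TPA 1 to 2 cytosolic members higher, where Mars1 was lost without RGRN-305 mouse 3 (edgeR adjusted p = 0.050). The interaction kept 15 to 16 cytosolic members lower. The cytosolic minus mitochondrial difference between TPA and vehicle was 0.85 (0.79 to 0.93 without single mice), and 0.69 without Gars1 and Kars1. Between RGRN-305 and vehicle it was 0.14 (0.03 to 0.21). Fits of only the groups compared were not run for the interaction, which needs all 4. Depth limits Pars2 most, with a count as low as 30 in 1 mouse.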
